A study of Mus musculus with 4 samples.

Results

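The regions described here are the imprinting control regions that carry DNA methylation on the copy inherited from the father: the H19 imprinting control region (H19 ICR), the intergenic control region between Dlk1 and Meg3 (IG-DMR), the differentially methylated region over the Meg3 promoter (Meg3 promoter DMR) and the control region upstream of Rasgrf1 (Rasgrf1 DMR). Their cytosines were taken by position in the mouse build mm9 and by depth. No methylation value entered that rule, though the regions were chosen with earlier results of these data known. The H19 ICR was taken as chromosome 7, 149765000 to 149769500, the IG-DMR as chromosome 12, 110764500 to 110770000, the Meg3 promoter DMR as chromosome 12, 110776500 to 110782000, and the Rasgrf1 DMR as chromosome 9, 89768000 to 89784000. Within these bounds 147 cytosines were listed in at least 1 library, and the 98 with 5 or more methylation calls in every library were used, of 2468166 such cytosines in the whole data set. They were divided as 3 in the H19 ICR, 12 in the IG-DMR, 61 in the Meg3 promoter DMR and 22 in the Rasgrf1 DMR. The remaining 49 listed cytosines had fewer than 5 calls, or none, in 1 or more libraries.

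Reduced representation bisulfite sequencing reads CpG methylation in fragments released by the enzyme MspI, which cuts at CCGG. It was applied to genomic DNA of mouse embryonic stem (ES) cells, in 2 libraries of wild-type cells (WT) and 2 libraries of cells labelled Naa10 KO, here KO. The Naa10 protein catalyses acetylation of the N-terminus of many proteins, and the question asked of these regions is whether their imprinted methylation differs when it is missing. Cells of both genotypes were kept in N2B27 medium with LIF, the Mek inhibitor PD325901 and the Gsk3 inhibitor Chir99021 on irradiated embryonic fibroblast feeders, and were passaged 5 times without feeders before DNA was taken. The sources used here do not give how Naa10 was inactivated, the strain of the lines, or whether replicate libraries stem from separate clones or cultures. Methylation calls do not show the Naa10 allele, so the genotype labels were not checked here. The p-values below therefore rest on library-to-library spread alone, which may be technical.

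Most imprinted regions are methylated on the maternal copy, and the paternally methylated class is small. In a population of cells where each has 1 methylated and 1 unmethylated copy, the level of such a region lies near the middle of the range. At the H19 ICR the unmethylated maternal copy binds the insulator protein CTCF and keeps enhancers from Igf2, a growth factor gene, while the methylated paternal copy silences H19, a non-coding RNA gene. The IG-DMR receives its methylation in the male germ line and controls the cluster of Dlk1, which codes for a transmembrane protein of the Notch ligand family, and Meg3, a non-coding RNA expressed from the maternal copy. The Meg3 promoter DMR is a secondary region, which gains its paternal methylation after fertilisation under the control of the IG-DMR. Rasgrf1 codes for a guanine nucleotide exchange factor of Ras, and its paternal methylation allows expression from the paternal copy in brain. Maintenance of these marks after fertilisation relies on the maintenance methyltransferase DNMT1 and on the zinc finger protein ZFP57 with its partner TRIM28.

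The Meg3 promoter is shown in letters because the start site of Meg3 lies in it and each of its CpGs was read. RefSeq's promoter table (build GRCm38.p6) held Meg3 and Rasgrf1, and H19 was not found in it. The sequence runs from 250 bases before the start site of Meg3 to 50 bases after it, on the plus strand, at chr12:109540746-109541045 of GRCm38.p6, with its 13 CpGs in capitals.
Meg3 promoter: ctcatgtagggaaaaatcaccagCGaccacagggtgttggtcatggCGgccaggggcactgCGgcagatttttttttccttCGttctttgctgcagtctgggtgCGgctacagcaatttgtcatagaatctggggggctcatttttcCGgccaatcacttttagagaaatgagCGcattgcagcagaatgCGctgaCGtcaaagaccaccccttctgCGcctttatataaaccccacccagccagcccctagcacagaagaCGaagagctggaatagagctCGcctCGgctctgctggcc
No genome of mm9 was used, so this sequence was placed on the deposited mm9 positions by the spacing of its CpGs alone. Of 5202 offsets tried within the Meg3 promoter DMR, 1 put all 22 listed positions of the window on a C or G of a CpG, and the next best put 12 there. That offset sets the sequence at mm9 positions 110778956 to 110779255 of chromosome 12. At least 1 strand of each of the 13 CpGs passed the depth minimum, 22 cytosines in all, and both strands passed at 9 CpGs. A second Meg3 promoter listed by RefSeq holds 1 CpG and could not be placed.

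The libraries held 68586396 to 79540412 methylation calls, and the cytosines used genome-wide had a median depth of 21 to 25 calls. The regions were read more thinly in places, with a median depth per cytosine of 8 to 14 calls in the Meg3 promoter DMR, 11 to 29 in the IG-DMR, 16 to 31 in the Rasgrf1 DMR and 20 to 29 in the H19 ICR. Methylation was lower in the KO libraries across the genome: the median level of 155252 windows of 1 kb was 80.1% and 80.0% in WT replicates 1 and 2, and 20.8% and 12.7% in KO replicates 1 and 2. The region results are therefore given beside the same values for other windows. Cytosines on 1 fragment are read by the same reads, and reads were not counted by molecule, so the intervals below cover counting error only.

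All 4 regions were lower in KO than in WT, without overlap between the genotypes in any, as in 90.8% of the 1 kb windows genome-wide. The level of a region is the methylated calls over all calls of its cytosines in a library. Summed counts of both kinds of call were tested by edgeR's quasi-likelihood method in 1 table with all 1 kb windows, with Benjamini-Hochberg adjustment. A feature was called where its adjusted p was under 0.05 and the genotype means lay 10 percentage points or more apart. A two-sided exact permutation test over the 4 levels gave p = 0.333 for every region, 0.333 after adjustment over the 4, which is the smallest p that 2 against 2 libraries allow.

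The WT levels of the cytosines read went against the imprinted label at 3 of the 4 regions. Only the H19 ICR had a mean WT level near the middle of the range, and the IG-DMR, the Meg3 promoter DMR and the Rasgrf1 DMR had means of 91.6%, 79.8% and 82.1%, above what methylation of 1 copy would give. Of the 98 cytosines, 7 had a mean WT level of 35 to 65%, 89 were above and 2 below. Parental copies were not distinguished in these data, so levels on the paternal and maternal copy, or in different cells, cannot be told apart. The bounds of the regions are wide, up to 16001 bp in the Rasgrf1 DMR, and no annotation of mm9 was used. Whether the cytosines read lie in the part methylated on 1 copy is therefore not known. In the IG-DMR 8 of the 12 lie within the first 500 bp of its bounds.

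**Figure D1:**
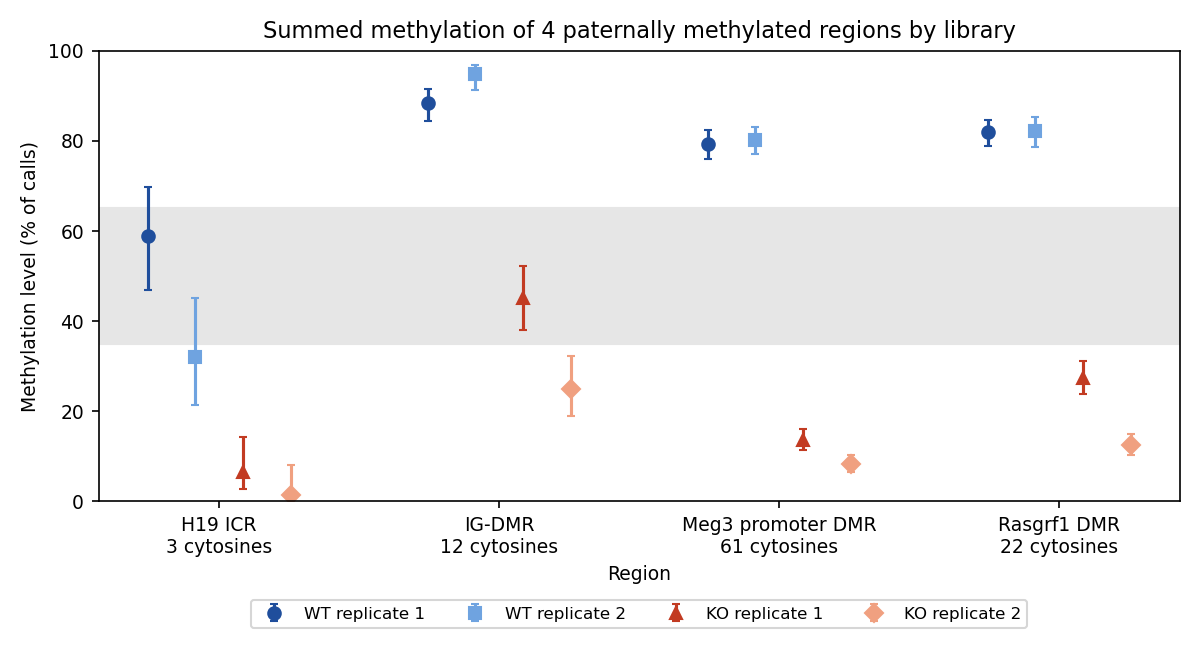
Methylation level (percent of calls) of each region in each library, with 95% Wilson intervals for counting error; the grey band marks 35 to 65%. Both WT libraries lie above both KO libraries in every region, and among WT values only that of H19 ICR in replicate 1 lies inside the band.

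The H19 ICR, the only region of intermediate mean level in WT, held little methylation in KO. WT replicate 1 had a level of 58.8% (40 of 68 calls, 95% Wilson interval 46.96 to 69.7%) and WT replicate 2 of 32.1% (18 of 56 calls, 21.4 to 45.2%). In KO replicate 1 it was 6.49% (5 of 77 calls, 2.81 to 14.3%) and in KO replicate 2 1.52% (1 of 66 calls, 0.268 to 8.10%). The 2 WT libraries were 26.7 points apart and their intervals did not overlap, but the lower of them still lay 25.6 points above the higher KO library. Mean levels were 45.5% ± 18.9 (SD, n = 2) for WT and 4.00% ± 3.52 (SD, n = 2) for KO, so that KO minus WT came to -41.5 points (edgeR adjusted p = 3.58e-05). Left out in turn, the libraries moved this difference between -54.8 and -28.1 points, and its edgeR adjusted p was at most 0.0161. Such a fit leaves 1 library in a genotype, which is assumed to vary like the others.

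These values rest on 3 cytosines within 201 bp, of 14 in the H19 ICR that were listed in at least 1 library. At 149767092 of chromosome 7 the levels were 56.5% and 35% in WT replicates 1 and 2, and 6.90% and 0% in KO replicates 1 and 2. At 149767135 they were 56.5% and 23.8% in WT, and there was no methylated call among the 29 and 23 calls of the KO libraries, which allows a level of up to 10.3% and 13.0%. At 149767292 they were 63.6% and 40.0% in WT and 15.8% and 5.00% in KO. WT replicate 1 was above WT replicate 2 at each of the 3. The smallest fall was 40.2 points and the largest 42.3 points. All 3 were called lower in the edgeR test over single cytosines, where 35.6% of all cytosines were called lower and 0.00138% higher.

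The IG-DMR was methylated well above the middle of the range in WT, and of the 4 regions it had the highest level in KO. Its level was 88.4% (275 of 311 calls) in WT replicate 1 and 94.8% (237 of 250 calls) in WT replicate 2. It was 45.1% (83 of 184 calls, 95% Wilson interval 38.1 to 52.3%) in KO replicate 1 and 25% (40 of 160 calls, 18.9 to 32.2%) in KO replicate 2. The KO libraries thus differed by 20.1 points, and both were far below WT. The means were 91.6% ± 4.51 (SD, n = 2) and 35.1% ± 14.2 (SD, n = 2), a change of -56.6 points (edgeR adjusted p = 7.94e-08).

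The cytosines of the IG-DMR formed 2 groups. The 8 in the first 500 bp of the region, all at 110764888 to 110764947, had a summed level of 93.3% and 97.4% in WT replicates 1 and 2, and of 52.1% and 26.7% in KO replicates 1 and 2. They held 120 to 255 calls a library, where the whole region had 160 to 311, so its summed level rests mainly on them. Of these, 110764929 kept the highest mean KO level, 59.4%: both WT libraries stood at 97.1%, KO replicate 1 at 71.4% and KO replicate 2 at 47.4%. Only 18 bp away, 110764947 showed the largest fall of the region, 76.9 points, from 94.3% in each WT library to 19.05% and 15.8% in the KO libraries. The numbers of calls were the same at both positions in every library, 35, 35, 21 and 19, so that the KO levels differed between cytosines of equal depth and nearly equal WT level. At 110764905, with 110 calls in all and none deeper in the region, the levels were 97.1% in each WT library and 61.9% and 31.6% in KO replicates 1 and 2.

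About 3 kb further on lay the other 4 cytosines of the IG-DMR. At 110767968 the WT libraries had 85.7% and 83.3% and the KO libraries 40% and 50%, which did not pass the test. At 110768064 the WT libraries had 92.9% and 100% and each KO library 20%. At 110768078 the WT libraries had 85.7% and 83.3% and the KO libraries 20% and 10%. In contrast to these, 110768051 had no methylated call in any library, 0 of 39 calls in all, which allows a level of up to 7.69%. It lies 13 bp from a cytosine that was over 90% methylated in each WT library. Without it, an alternative chosen after seeing the data, the IG-DMR had 94.7% in WT and 37.2% in KO. Of the 12 cytosines 10 were called lower, and the genotypes did not overlap, KO being lower, at 11. Of all cytosines genome-wide this held for 44.6%.

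The Meg3 promoter DMR, the region with the most cytosines, was highly methylated in WT and kept little of that level in KO. Its level was 79.4% (489 of 616 calls) in WT replicate 1 and 80.3% (542 of 675 calls) in WT replicate 2. It was 13.6% (118 of 865 calls) in KO replicate 1 and 8.25% (75 of 909 calls) in KO replicate 2. The replicates of each genotype were close, 0.913 points apart in WT and 5.39 points apart in KO. The means were 79.8% ± 0.646 (SD, n = 2) and 10.9% ± 3.81 (SD, n = 2), a change of -68.9 points (edgeR adjusted p = 4.33e-13). This was the largest fall in points among the 4 regions, and differences between regions were not tested.

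Of its 61 cytosines 54 were called lower and none higher, and neither KO library reached a WT library at any of the 61. Of all cytosines 35.6% were called lower, and 44.6% had KO values below the WT values without overlap. All cytosines had a mean level of only 33.0% in each WT replicate, so these are not shares among cytosines of like WT level, which were not computed. The 7 that were not called had 30 to 45 calls in all, within the 26 to 87 of those called. By the mean WT level 57 cytosines were above 65% and 4 between 35 and 65%. KO means ran from 0% to 54.5% with a median of 10.1%, and 8 cytosines had no methylated call in either KO library.

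The 61 cytosines span 1264 bp, and the KO level differed along them. In the 500 bp from 110778000 KO replicates 1 and 2 had 23.8% and 16.5%, with 82.4% and 82.7% in WT. In the next 500 bp they had 18.2% and 6.08%, with 84.7% and 92.3% in WT, and in the 500 bp from 110779000, where the start site lies, 10.2% and 7.31%, with 77.8% and 78.3% in WT. The last stretch, with 3 cytosines, had 5.88% and 4.17% in KO and 69.4% and 57.6% in WT. KO replicate 1 thus became lower from stretch to stretch, and KO replicate 2 was highest in the first and lowest in the last. The highest KO level of a cytosine was at 110778316, with 54.5% in each KO library and 77.8% and 85.7% in WT, which was also the smallest fall of the region, 27.2 points, and not called (edgeR adjusted p = 0.316). The largest fall was at 110778784, from 100% in each WT library to 16.7% and 0% in KO, on 5 to 12 calls a library. At 110779147, the cytosine of greatest depth with 87 calls in all, the levels were 66.7% and 77.8% in WT and 9.09% and 4.35% in KO.

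**Figure D2:**
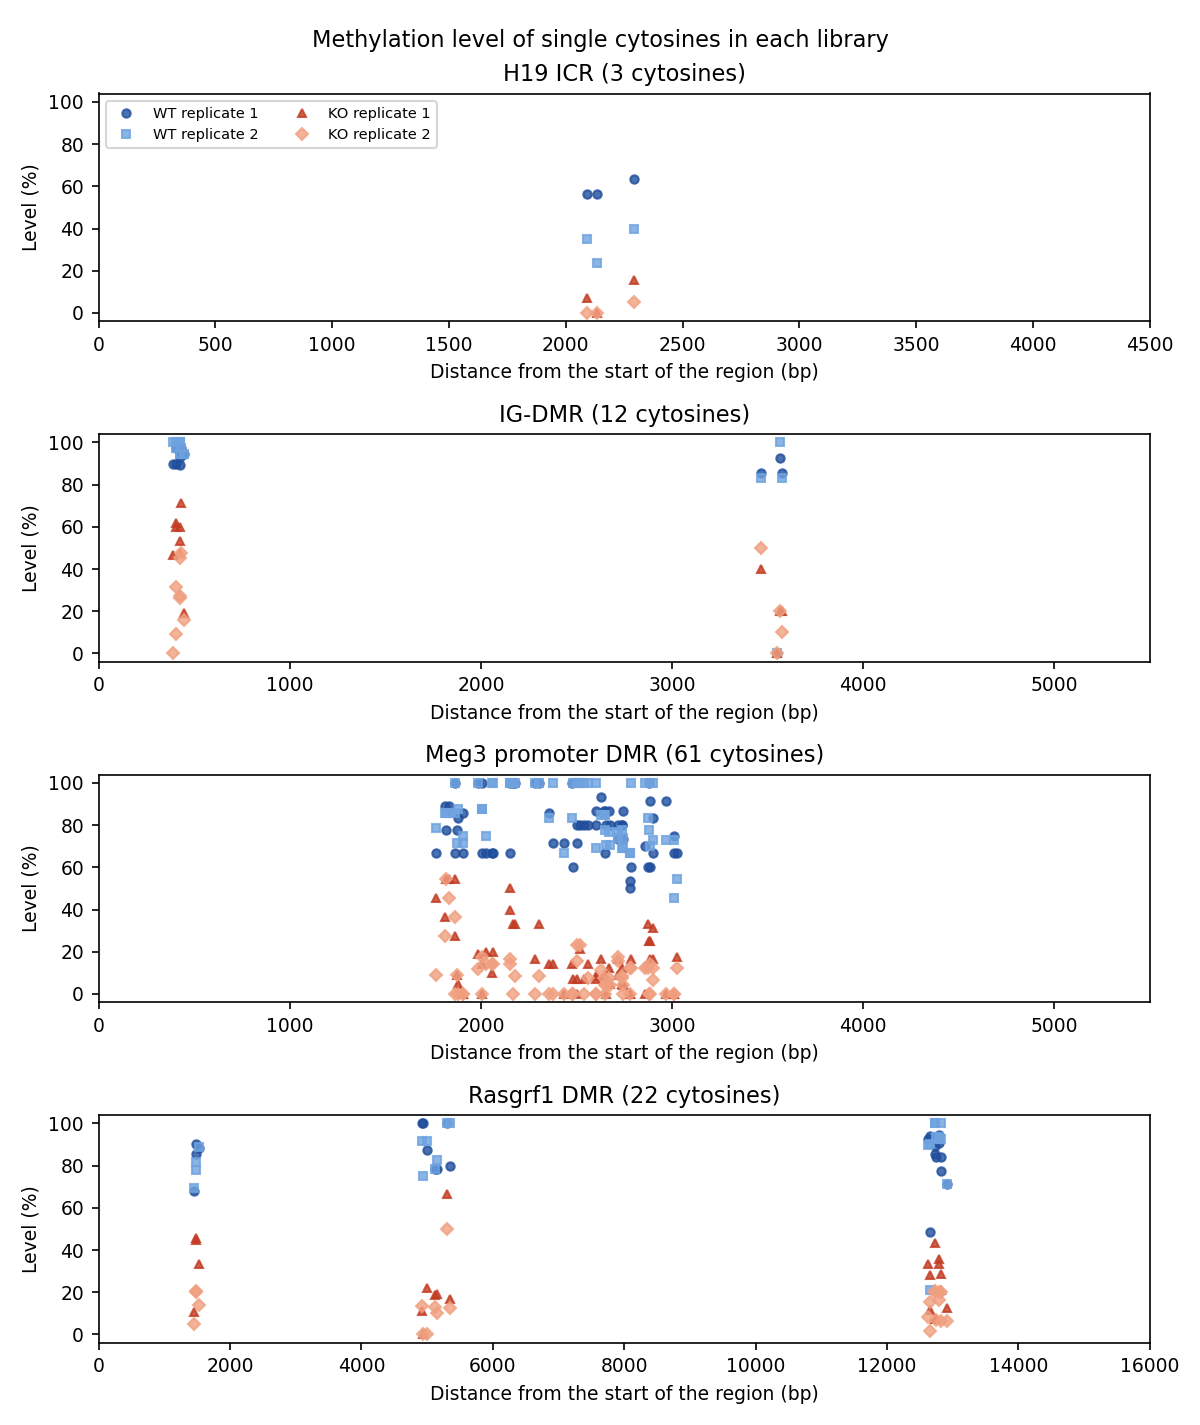
Methylation level of the 98 cytosines in each library against the distance from the start of the region in bp, 1 panel a region. WT points lie above KO points at all but 1 cytosine, the IG-DMR position at 0% in each library, and the Meg3 promoter DMR holds its highest KO values at its left end.

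Over the printed Meg3 promoter the WT level was that of the whole region and the KO level slightly below it. Summed over the 22 cytosines, WT replicates 1 and 2 had 81.1% and 79.1%, and KO replicates 1 and 2 had 9.0% and 7.11%. No cytosine was below 60% in WT or above 23.1% in KO, so the genotypes did not overlap at any of them, as at 44.6% of all cytosines. The means were 80.1% ± 1.44 (SD, n = 2) and 8.06% ± 1.34 (SD, n = 2).

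The ninth CpG of the sequence lies in TGACGTCA, the palindromic cAMP response element, which is bound by factors of the CREB family and whose binding is known to be sensitive to methylation of its central CpG. The motif reads the same on both strands, does not overlap another motif searched, and occurs in 588 of 32851 RefSeq promoters of this length (1.79%). On the strand printed, its cytosine was methylated in 13 of 15 calls in WT replicate 1 and 11 of 13 in WT replicate 2, against 2 of 24 in KO replicate 1 and 0 of 25 in KO replicate 2. On the other strand it was methylated in 12 of 15 and 19 of 27 calls in WT, and in 0 of 22 and 1 of 23 calls in KO. Both strands of this CpG were thus at 70.4% or more in WT and at 8.33% or less in KO. The sixth CpG lies in the single MspI site, CCGG, which occurs in 52.8% of the promoters, and had 86.7% and 69.2% in WT and 8.33% and 0% in KO on the strand printed. On the other strand it had 80% and 100% in WT, on 5 and 7 calls, and 7.14% and 0% in KO, on 14 and 13 calls. Binding and expression were not measured.

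**Figure D3:**
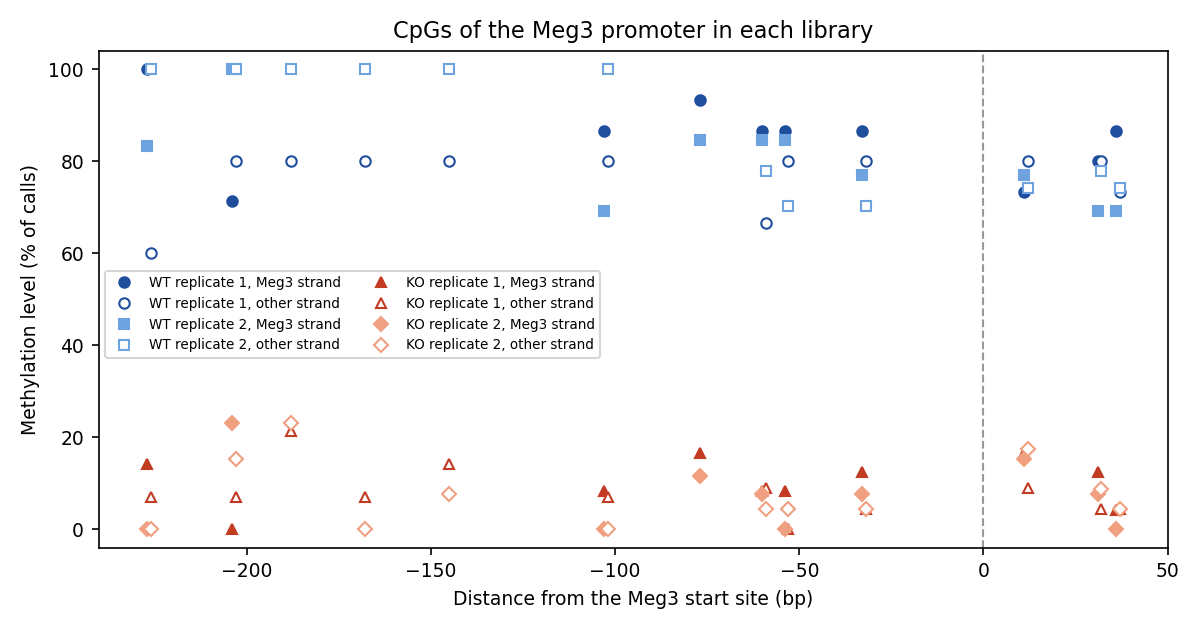
Methylation level of the 22 cytosines of the Meg3 promoter in each library against the distance from the start site in bp (dashed line at 0), with filled symbols for the strand of Meg3 and open symbols for the other strand. WT values lie at 60% or more and KO values at 23.1% or less on either side of the start site.

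The Rasgrf1 DMR resembled the Meg3 promoter DMR in WT level and kept more of it in each KO library. Its level was 81.9% (540 of 659 calls) in WT replicate 1 and 82.2% (406 of 494 calls) in WT replicate 2. KO replicate 1 had 27.3% (158 of 579 calls, 95% Wilson interval 23.8 to 31.1%) and KO replicate 2 had 12.4% (96 of 773 calls, 10.3 to 14.9%). The WT libraries were 0.244 points apart and the KO libraries 14.9 points. The means were 82.1% ± 0.172 (SD, n = 2) and 19.9% ± 10.5 (SD, n = 2), a change of -62.2 points (edgeR adjusted p = 1.02e-10). Of the 22 cytosines 21 were called lower and none higher, and the KO libraries stayed below the WT libraries at all 22, beside 35.6% called lower and 44.6% without overlap among all cytosines.

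The cytosines fell into 3 groups spread over 11470 bp. The 4 of the first group, at 89769450 to 89769530, had KO replicate 1 levels of 10.6% to 45.8% and KO replicate 2 levels of 4.76% to 20.6%, with 67.9% to 90.2% in WT. In the middle group 89772934 showed the largest fall of the region, from 100% and 75.0% in WT to no methylated call in 9 and 22 calls in KO. In the same group 89773308 kept the highest KO level, 66.7% and 50.0% against 100% in each WT library, on 5 to 8 calls a library, and was the cytosine not called (edgeR adjusted p = 0.0767). In the third group the deepest cytosine, 89780620 with 209 calls in all, had 92.4% and 90% in WT and 33.3% and 8.20% in KO.

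The 2 strands of a CpG could be compared at 26 CpGs of the regions, 3 in the IG-DMR, 18 in the Meg3 promoter DMR and 5 in the Rasgrf1 DMR. In the Meg3 promoter DMR the lower positions had 76.1% and 80.0% in WT and 12.7% and 7.67% in KO, and the higher positions 80.9% and 77.0% in WT and 10.0% and 6.54% in KO. Neither strand was the higher in all libraries. At 1 CpG of the Rasgrf1 DMR the strands stood apart in WT. Its lower position, 89780659, had 94.1% and 90.5% in WT and 28.0% and 15.4% in KO, while its higher position, 89780660, had 48.4% and 21.2% in WT and 11.8% and 1.69% in KO. The mean WT gap between the strands there was 57.5 points, the widest of the 26, and the next widest was 23.8 points. Gaps were ranked in WT only. Another CpG of the region, at 89780724 and 89780725, had 7.14% and 43.1% on its strands in KO replicate 1, on 14 and 51 calls. In KO replicate 2 it had 20% and 20.3%. The position 89780660 was also the only one of the region below 65% in WT and showed its smallest fall, 28.1 points (edgeR adjusted p = 3.55e-04).

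Summed over the 4 regions, 88 of the 98 cytosines were called lower and none higher, and at 97 the KO values were below the WT values. The shares over all cytosines were 35.6% and 44.6%, but their mean level was only 33.0% in each WT replicate. Shares among cytosines of like WT level were not computed. KO replicate 2 was below KO replicate 1 at 71 of the 98. All 9 of the 1 kb windows with at least 3 cytosines and a midpoint inside the regions were called lower, where 79.9% of all windows were called lower and 0.00322% higher. The first IG-DMR window begins before the region and holds 1 cytosine outside it. Windows of comparable WT level gave like shares: among the 17042 windows outside the regions with a mean WT level of 35 to 65%, 99.0% were called lower, and among windows at 90 to 100%, 99.97% were.

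The share of the WT level found in KO differed from region to region, in the same order in both KO libraries. It was 38.3% in the IG-DMR (49.2% by KO replicate 1 and 27.3% by KO replicate 2), 24.2% in the Rasgrf1 DMR (33.3% and 15.1%), 13.7% in the Meg3 promoter DMR (17.1% and 10.3%) and 8.80% in the H19 ICR (14.3% and 3.33%). KO replicate 2 had the lower share in each region, so the ranges over the KO libraries overlapped between neighbours in this order although the order within each library was the same. Over 121800 windows at 20% or more in WT the median share was 26.8%, above that of 3 of the regions and below that of the IG-DMR. This share rose with the WT level of windows. Its median was 20.7% in windows at 40 to 50% in WT, 23.8% at 70 to 80%, 26.1% at 80 to 90% and 32.2% at 90 to 100%. The order of the regions by share is also their order by mean WT level (91.6%, 82.1%, 79.8% and 45.5%), so it is not separated from WT level here.

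Against windows of the same WT level, the IG-DMR and the Rasgrf1 DMR lay near the middle, and the Meg3 promoter DMR and the H19 ICR toward the low end. In the 42947 windows at 90 to 100% in WT the median KO level was 30.0% (quartiles 22.7 and 38.3%), and 66.4% of them were below the 35.1% of the IG-DMR. In the 35304 windows at 80 to 90% it was 22.4% (16.4 and 29.0%), and 39.1% were below the 19.9% of the Rasgrf1 DMR. In the 15295 windows at 70 to 80% it was 18.0% (12.8 and 23.7%), and 17.5% were below the 10.9% of the Meg3 promoter DMR. In the 4813 windows at 40 to 50% it was 9.33% (5.80 and 13.4%), and 14.1% were below the 4.00% of the H19 ICR. These are places in a distribution and not tests.

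**Figure D4:**
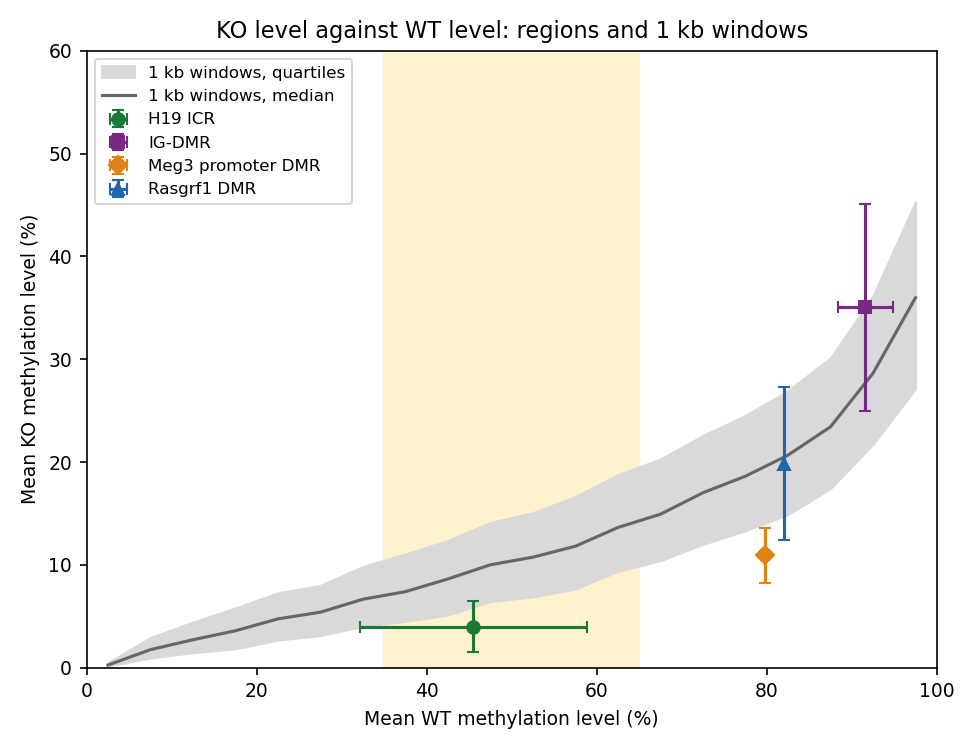
Mean KO level against mean WT level in percent for the 4 regions, with bars from the lower to the higher library of each genotype, over the median (line) and quartiles (grey) of the 1 kb windows in 5-point bins of WT level; the shaded column marks 35 to 65%. The means of the Meg3 promoter DMR and the H19 ICR lie below the quartiles, and those of the Rasgrf1 DMR and the IG-DMR inside them.

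The windows at 35 to 65% in WT served as the common reference. Their median was 53.1% for WT and 10.7% for KO (12.8% in KO replicate 1 and 8.42% in KO replicate 2), with quartiles of 6.69 and 15.5% and a highest mean KO level of 54.0%. Of the 4 regions the H19 ICR alone had a mean WT level in this range. A KO level below that of the H19 ICR was found in 10.6% of these windows, below that of the Meg3 promoter DMR in 51.4%, below that of the Rasgrf1 DMR in 88.6% and below that of the IG-DMR in 99.5%.

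Whether a region changed by another amount than these windows was tested with limma on log2 of methylated over unmethylated calls, with 0.5 added to each count and every library centred on the median of the 17042 windows. That median changed by -3.21 from WT to KO. On this scale the Meg3 promoter DMR was lower than the shift (relative change -1.84 ± 0.30 SE, limma adjusted p = 0.0111), where the background was 36.1% of windows called as more negative than the shift and 14.3% as less negative. The call was lost when libraries were centred on all windows at 10 to 90%, whose median changed by -4.47: the Meg3 promoter DMR then stood at -0.57 (limma adjusted p = 0.174). The relative changes of the other 3 regions were not called and turned positive under that centring. They were -1.10 for the H19 ICR (95% interval -2.71 to 0.51, limma adjusted p = 0.194), -1.25 for the IG-DMR (-2.56 to 0.07, adjusted p = 0.0952) and -1.09 for the Rasgrf1 DMR (-2.00 to -0.19 before adjustment, adjusted p = 0.0511). The IG-DMR became called without WT replicate 1 (-1.86, limma adjusted p = 0.0202) and the Rasgrf1 DMR without KO replicate 1 (-1.47, limma adjusted p = 0.0327), fits in which 1 genotype has a single library and the spread comes from the other. The intervals of the H19 ICR and the IG-DMR reach from a more negative relative change than that of the Meg3 promoter DMR to no difference from the windows at 35 to 65%. Those windows themselves changed by -3.21, so a relative change of 0 is not an absence of loss. In WT the windows at 10 to 90% had higher medians on this scale, 2.56 and 2.55 against 0.16 and 0.16. The IG-DMR, the Meg3 promoter DMR and the Rasgrf1 DMR likewise lay above 65% in WT. Their relative changes are therefore not matched for WT level and do not show a greater loss than in windows of like level. The IG-DMR kept 38.3% of its WT level, where the median over the windows at 35 to 65% was 20.8%.

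The sequence within 25 kb on either side was also lower in KO around each region. Around the H19 ICR, 70 cytosines had 73.2% and 73.5% in WT and 24.0% and 12.4% in KO, above the levels of the ICR itself in each library. Around the IG-DMR, 71 cytosines had 83.7% and 86.8% in WT and 23.9% and 18.2% in KO, below those of the IG-DMR in each library. Around the Meg3 promoter DMR, 55 cytosines had 82.8% and 85.1% in WT and 22.03% and 16.8% in KO, above those of the DMR in each library. The flanks of the IG-DMR and the Meg3 promoter DMR overlap, since the regions are neighbours. Around the Rasgrf1 DMR, 115 cytosines had only 18.7% and 16.9% in WT and 6.09% and 4.09% in KO. As a share of WT, KO levels were 24.8%, 24.7%, 23.2% and 28.6% in these flanks, a narrower range than the 8.80% to 38.3% of the regions. Differences between a region and its flanks were not tested.

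**Figure D5:**
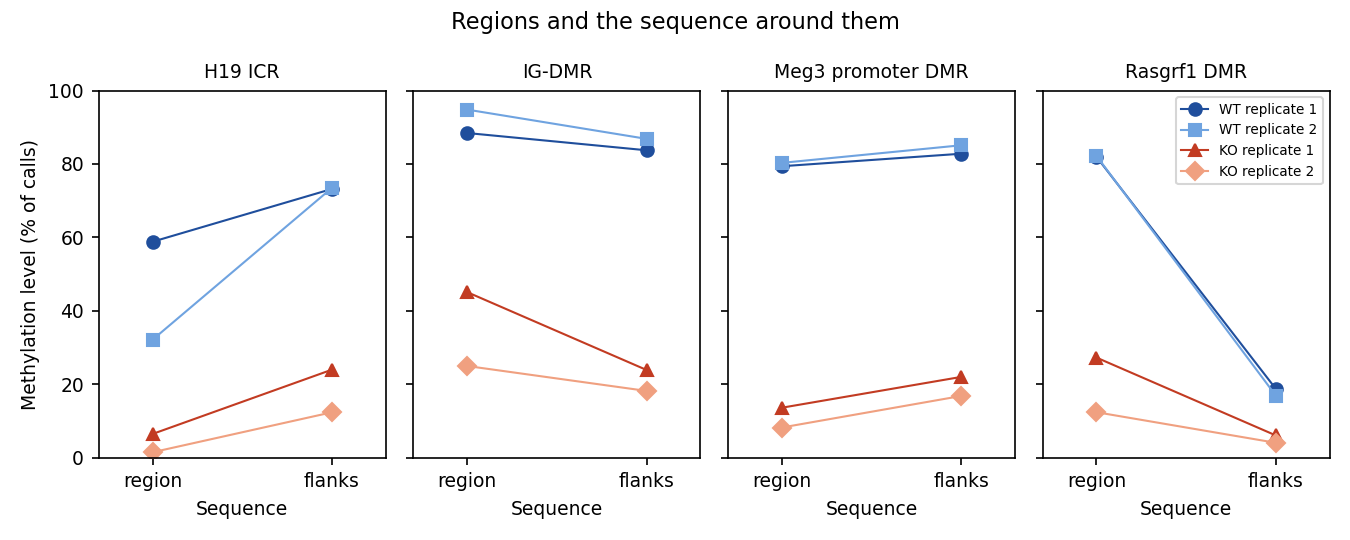
Methylation level (percent of calls) of each region and of the sequence within 25 kb on either side, with 1 line a library. The H19 ICR and the Meg3 promoter DMR lie below their flanks in every library, and the IG-DMR and the Rasgrf1 DMR lie above theirs.

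The depth minimum of 5 calls did not decide the direction. The 14 cytosines just outside it, with 3 or 4 calls in the library of fewest calls, had summed levels of 67.6% and 77.9% in WT and 27.3% and 12.9% in KO. The 34 just inside it, with 5 or 6, had 74.1% and 92.0% in WT and 17.4% and 9.97% in KO. Of the 14, 9 were in the IG-DMR and 4 in the Meg3 promoter DMR. Of the 34, 4 were in the IG-DMR and 28 in the Meg3 promoter DMR. The sets thus differ in region as well as in depth, so a difference between them cannot be read as one of depth.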

How the data were processed

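Each deposited table lists cytosines with a methylation percent and the 2 counts behind it, methylated and unmethylated calls. The deposited counts are whole numbers, not normalised, and the percent computed from them equals the deposited one. The submitters' processing notes name Trim Galore, Bismark 0.10.1 and mm9, without roles; trimming, filtering and duplicate removal were not given there. Bases filled in at MspI ends during library preparation (50 ng of DNA a library, fragments of 150 to 500 bp, per the labels) can enter calls unless trimmed.

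Groups and replicate numbers came from the sample titles. Cytosines of chromosomes 1 to 19, X and Y with 5 or more calls in every library were kept, and 1 kb windows needed 3 of them. Regions, windows and cytosines were fitted with edgeR 4.0.16 under R 4.3.3, with a term for each library, 1 for the methylated state and 1 for its interaction with genotype. Its dispersion was set to 0, a choice made on simulated data, which leaves the spread to the quasi-likelihood term. The simulation gave every library the spread of the WT pair. The KO libraries lay further apart (window medians of 20.8% and 12.7%, against 80.1% and 80.0% in WT), and the simulated data do not cover that. Features lacking either kind of call could not be fitted and stayed in the adjustment as not called. Relative changes used limma 3.58.1, and the permutation test scipy 1.17.1. Strands were paired from neighbouring positions. The regions and lists were chosen with earlier results of these data known. By rule, the text names per region the cytosines of largest fall, smallest fall, highest KO level and greatest depth. Others (further cytosines of the H19 ICR, the IG-DMR and the Rasgrf1 DMR, and the promoter CpGs) were named after their values were seen. No annotation of mm9 was used.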

Additional observations from a re-analysis of the deposited data

How the results depend on the processing

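The 4 regions stayed lower in KO and called under each alternative that gave a test: depth minimums of 1, 10 and 20 calls, limma, Fisher's exact test on pooled counts, single libraries left out, the deepest cytosines left out, the replicate block, and edgeR with an estimated common dispersion, which was chosen after seeing the data. No cytosine of the IG-DMR or the Meg3 promoter DMR had 20 calls in every library, so that minimum gave them no value. Fits without 1 library take their spread from the genotype with 2, and Fisher's test on pooled calls covers counting error only, so neither adds a check of replicate spread. With single libraries left out, differences ran from -54.8 to -28.1 points (H19 ICR), -66.6 to -46.5 (IG-DMR), -71.6 to -66.2 (Meg3 promoter DMR) and -69.6 to -54.8 (Rasgrf1 DMR). From cytosines at 20 to 80% in WT replicate 1 alone, the Meg3 promoter DMR gave -64.2 points and the Rasgrf1 DMR -55.3 points.

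Changes relative to the windows at 35 to 65% were less stable. Centred on all windows at 10 to 90% they were 0.16 (H19 ICR), 0.017 (IG-DMR), -0.57 (Meg3 promoter DMR) and 0.17 (Rasgrf1 DMR) on the log2 scale, so 3 turned positive and the Meg3 call was lost. With single libraries left out they ran from -1.88 to -0.32, -1.86 to -0.63, -1.92 to -1.75 and -1.47 to -0.71. The IG-DMR became called without WT replicate 1 (limma adjusted p = 0.0202), and the Rasgrf1 DMR without KO replicate 1 (limma adjusted p = 0.0327). The IG-DMR was also called with windows of 10 or more cytosines (-1.36), at 10 calls (-1.86) and without its cytosine at 0 (-1.79), the Rasgrf1 DMR with windows of 10 or more cytosines (-1.21), and the H19 ICR at 20 calls (-1.85).

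Inside the regions 49 of 49 cytosines were called lower at 10 calls and 12 of 12 at 20 calls, beside 35.2% and 34.6% of all cytosines. With the replicate block 80 of 98 were called lower, against 88 in the main fit, beside 33.1% of all cytosines. Fewer cytosines were called lower, inside and genome-wide, with any single library left out. Windows called lower inside were 5 of 5 and 2 of 2, and 3 of 3 with 10 or more cytosines a window, beside 76.3%, 68.2% and 55.7% of all windows. Genome-wide, windows called lower numbered 124103 and became 52533 at 20 calls and 31407 with 10 or more cytosines. Cytosines called lower numbered 878453 and became 365727 at 20 calls. Windows called higher numbered 5, against 3 at 10 calls, 1 at 20 calls, 69 with no minimum difference, 0 with 25 points, 2 at 2 kb, 1 with 10 or more cytosines and 1 to 14 with single libraries left out. Cytosines called higher numbered 34, against 19 at 20 calls, 355 by limma, 152 by Fisher's test, 12 with 25 points and 2 to 113 with single libraries left out.

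The deviations of same-numbered libraries had a correlation of -0.00579 over 155252 windows. With 2 libraries a genotype this cannot tell whether same-numbered libraries were made together, which the labels do not give. The replicate block gave 22 cytosines called higher and changed no call of the regions. The H19 ICR is limited by its number of cytosines (3), and the Meg3 promoter DMR by a median depth of 8 to 14 calls. The level of the IG-DMR rests mainly on the 8 cytosines at 110764888 to 110764947.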
